A study of Mus musculus with 34 samples.

Results

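The natriuretic peptide system was followed across the heart cells of newborn mice, cardiomyocytes made from their fibroblasts by direct reprogramming, and cardiomyocytes made from the same kind of fibroblasts through induced pluripotent stem cells (iPSCs). The 7 members are the peptide genes Nppa, Nppb and Nppc, the receptor genes Npr1, Npr2 and Npr3, and Corin. Each was found by an exact match of its symbol in the gene-name column of the array files, and all 7 are among the 19408 genes tested. A gene was tested if, in 1 or more groups, each array read its probe well above background; Nppc met this only in 2 of the 17 groups, so its differences follow in part from that filter.

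All 34 arrays came from cells of CD1 mice that carry aMHC-GFP, a reporter in which the promoter of the cardiac myosin gene Myh6 drives green fluorescent protein. Neonatal cardiac fibroblasts (neoCF) and neonatal cardiomyocytes (neoCM) were taken from pups of postnatal day 1.5. Induced cardiomyocytes (iCM) were fibroblasts infected with a retrovirus that carries Mef2c, Gata4 and Tbx5 on 1 transcript (MGT) and were collected at 4 weeks. The pluripotent route used iPSCs made with Oct4, Sox2, Klf4 and cMyc and gave cardiomyocytes of line 1 at day 13 (iPSC1-CM D13) and of line 2 at day 9 and, after long-term culture, day 29 (iPSC2-CM D9 and D29). A time course held cardiac fibroblasts at day 0 (CF D0) and fibroblasts infected with MGT or with the control gene LacZ at days 3, 5, 7, 10 and 14. Both kinds of reprogrammed cardiomyocytes are described as contractile, no sort is named in the labels, and each of the 17 groups holds 2 arrays. The duplicates are not described as separate cultures, so p-values measure only the spread between these arrays.

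Nppa and Nppb encode the precursors of atrial and B-type natriuretic peptide, hormones that heart muscle releases and that lower blood volume and pressure. Corin is a membrane protease of heart muscle that cuts the atrial precursor into its active form. Both peptides act mainly on Npr1, a receptor that makes the messenger cGMP, while Nppc encodes C-type natriuretic peptide, the main ligand of the related receptor Npr2. Npr3 binds all 3 peptides, has no cyclase domain and removes them from the surroundings of the cell. In the developing heart, Nppa and Nppb are expressed in atrial and ventricular muscle, and after birth they become restricted mainly to the atria.

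Levels are log2 processed intensities relative to each array's 75th percentile, so that 0 is the brightness of the probe at that percentile and each unit is a doubling. The percentile itself lay at an intensity of 729 to 3778 per array, and 28715 to 44881 of 59305 spots per array were well above background. A gene was called changed where limma gave a Benjamini-Hochberg adjusted p under 0.05 over all genes tested and the difference was at least 2-fold. The duplicates of each group correlated at r = 0.984 to 0.997, except iPSC2-CM D29 at r = 0.895, where the SD of the difference between the arrays was 1.731 log2 units against 0.318 to 0.709 elsewhere. All 6 cardiomyocyte markers were well above background on both arrays of neoCM, iCM and the 3 iPSC-CM groups, with summed levels of 9.80 to 9.95 in neoCM and 8.14 to 8.44 in iCM. They were also above background in neoCF, at 5.85 to 6.34, against 3.12 to 3.23 in CF D0. Each summed level is the log2 of the sum of a list's unlogged levels, so the brightest marker weighs most. Its range runs from the lower to the higher of the group's 2 arrays. MGT and LacZ arrays of days 3 to 10 shared slides, while iCM and neoCM were scanned apart from neoCF and the iPSC-CM groups, so that in comparisons across these sets scan, slide and group cannot be told apart. In RNA from whole cultures, fewer cells of a type and less RNA per cell cannot be told apart either.

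On GRCm38.p6, Nppb lies at chr4:147985786-147987205 and Nppa at chr4:148000722-148002074, both on the plus strand, with 13516 bases and 0 other genes of the RefSeq table between them. Corin lies at chr5:72299948-72504540, Nppc at chr1:86666293-86670573, Npr1 at chr3:90450591-90465928, Npr2 at chr4:43629015-43651437 and Npr3 at chr15:11839896-11907837. The promoters of Nppa, Nppb and Corin are shown because these 3 genes were called higher with MGT than with LacZ on several days. On a given day, 3.18% to 5.84% of all genes were called higher. GATA and T-box motifs are marked because 2 of the delivered factors bind them. Whether the factors act on these promoters was not tested. The sequences are the 250 bases before the start that the RefSeq promoter table uses, at chr4:148000472-148000721 on the plus strand for Nppa, chr4:147985650-147985899 on the plus strand for Nppb, and chr5:72504541-72504790 on the minus strand for Corin. Capitals mark matches on either strand to a GATA motif (AGATAA or TGATAA or AGATAG or TGATAG), a T-box motif (AGGTGT) or an NKX motif (AAGTG).
Nppa: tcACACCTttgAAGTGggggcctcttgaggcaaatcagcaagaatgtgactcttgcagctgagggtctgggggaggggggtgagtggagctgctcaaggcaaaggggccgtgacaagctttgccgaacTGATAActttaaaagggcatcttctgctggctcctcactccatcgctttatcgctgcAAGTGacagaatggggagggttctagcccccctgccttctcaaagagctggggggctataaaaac
Nppb: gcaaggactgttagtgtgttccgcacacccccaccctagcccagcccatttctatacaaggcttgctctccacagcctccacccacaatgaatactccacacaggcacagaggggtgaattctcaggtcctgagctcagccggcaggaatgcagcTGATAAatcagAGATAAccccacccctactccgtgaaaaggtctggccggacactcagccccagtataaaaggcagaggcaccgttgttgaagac
Corin: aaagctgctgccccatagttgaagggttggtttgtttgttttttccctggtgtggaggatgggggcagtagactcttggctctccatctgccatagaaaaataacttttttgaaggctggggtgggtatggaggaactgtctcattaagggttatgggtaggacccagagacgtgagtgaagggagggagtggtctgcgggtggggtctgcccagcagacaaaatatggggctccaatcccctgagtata

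In the 300 bases around its start, Nppa held a T-box match at -248 to -243, NKX matches at -239 to -235 and at -65 to -61, and a GATA match at -122 to -117, counted from the start. Nppb held 2 GATA matches, at -95 to -90 and -84 to -79. Npr2 held a T-box match at -151 to -146, and the windows of Nppc, Npr1, Npr3 and Corin held none of these 3 motifs. No window of the 7 genes held a CArG box or a MEF2 site. These are common strings: of 32851 promoters of the same length, 29.8% held a GATA match, 13.7% a T-box match, 46.4% an NKX match, 1.63% a CArG box and 3.19% a MEF2 site. A match is a run of letters and not a measured binding site.

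**Figure D1:**
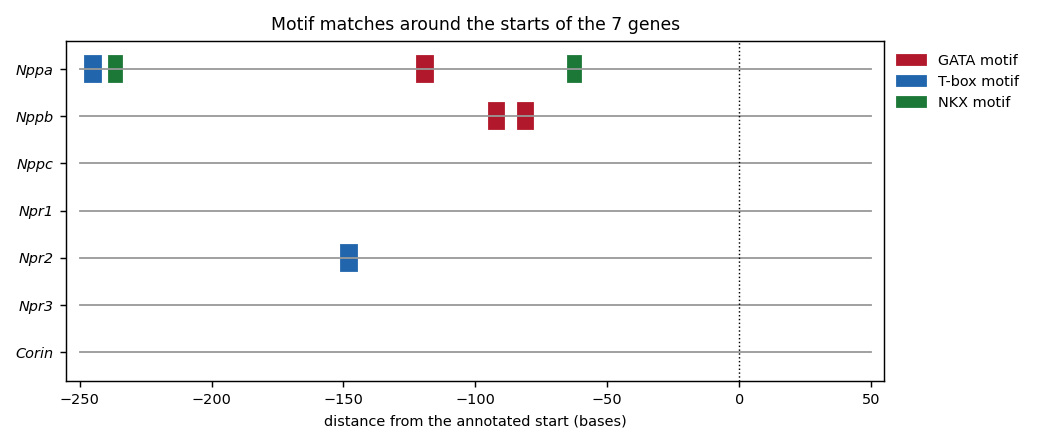
Positions of motif matches in the 300-base windows around the start sites of the 7 genes, with distance from the start in bases on the horizontal axis, 1 row per gene and a colour for each of the GATA, T-box and NKX motifs. Nppa carries 4 matches, Nppb 2 and Npr2 1, and the rows of Nppc, Npr1, Npr3 and Corin are empty.

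Nppa was read by a probe printed in 10 spots and was above background on all 34 arrays. Its level was 8.55 and 8.69 in neoCM, the highest group, and -2.42 and -2.28 in iCM, the lowest. The iCM arrays thus lay below every other array of the series, 0.94 under the nearest, which was a day 10 LacZ array. Among the iPSC-derived cells, Nppa was 6.24 and 4.68 in iPSC2-CM D29, 5.21 and 4.97 in iPSC2-CM D9, and 2.48 and 2.31 in iPSC1-CM D13. The neoCF arrays differed from each other, at 3.26 and 2.25, and overlapped MGT D5 and iPSC1-CM D13. In the order of the 17 group means, 5 of 16 neighbouring groups overlapped.

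The Nppb probe is shown as the reporter of the second cardiac peptide, with sequence in lower case as no base of it is singled out; it matches chr4:147360489-147360548 on the plus strand of mm9, the build of the array files.
Nppb probe: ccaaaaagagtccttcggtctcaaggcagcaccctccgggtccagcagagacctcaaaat

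Nppb was highest in 3 groups that overlapped: 3.34 and 3.43 in neoCM, 4.03 and 2.63 in iPSC2-CM D9, and 1.52 and 4.68 in iPSC2-CM D29. CF D0 came next at -0.31 and -0.40, above iPSC1-CM D13 at -0.58 and -1.08. The 10 MGT arrays spanned -2.40 to -1.69 over all days, and neoCF overlapped them at -1.58 and -1.87. The iCM arrays, at -3.93 and -4.03, stood below all of these and just above LacZ D5, whose arrays read -4.22 and -4.15. On the LacZ D14 arrays, at -5.19 and -4.25, the probe was not well above background.

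Nppc was well above background on 4 of 34 arrays: both of neoCF, at -1.94 and -1.90, and both of iPSC2-CM D29, at -3.61 and -3.67. Its level in all other groups was a bound and is not ordered here.

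Corin was highest in neoCM, at 2.61 and 2.52, followed without overlap by iCM at 1.75 and 1.86. MGT D7 at -0.04 and -0.46 and iPSC1-CM D13 at -0.50 and -0.37 overlapped. The other iPSC-derived groups were lower, at -2.17 and -2.20 for iPSC2-CM D9 and -3.22 and -2.79 for iPSC2-CM D29. In CF D0 and in LacZ at days 3, 7, 10 and 14 the Corin probe was not well above background on either array. At LacZ D5 the arrays disagreed, at -7.03 and -3.29, and only the latter was above background.

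**Figure D2:**
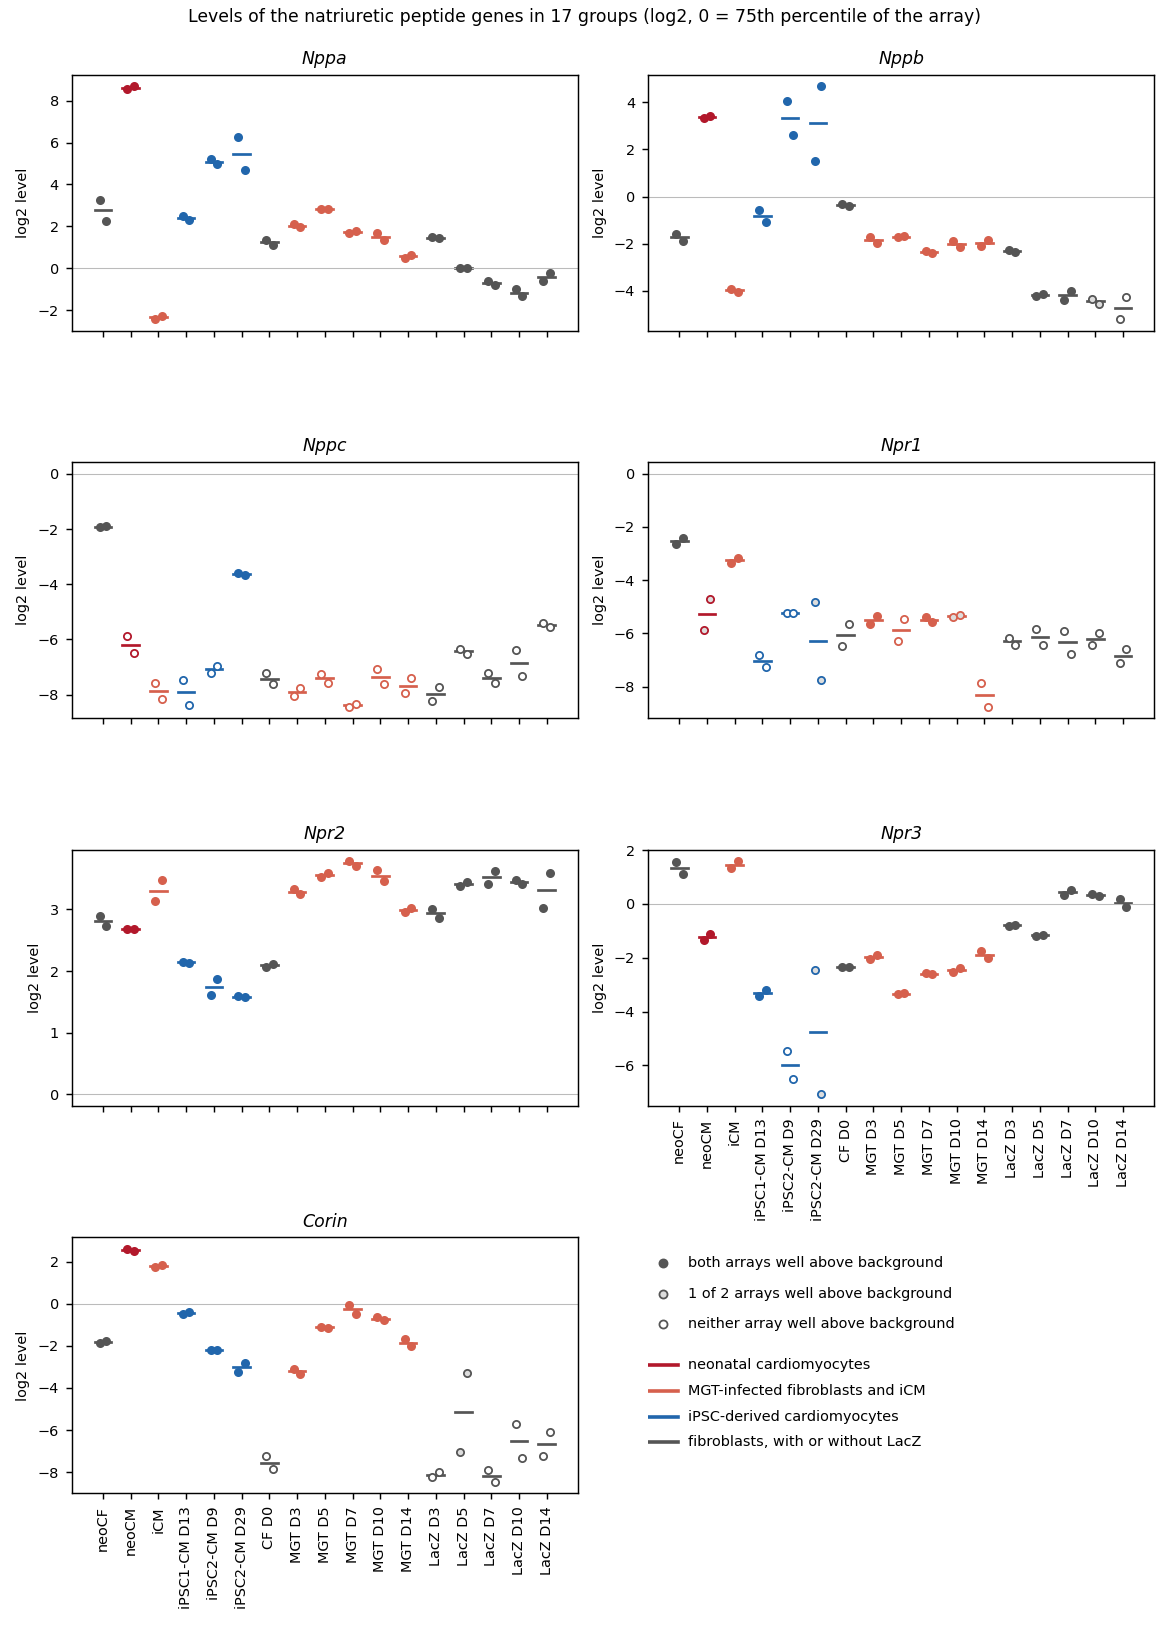
Log2 level relative to the array's 75th percentile (vertical axis) of each of the 7 genes in the 17 groups (horizontal axis); points are single arrays, bars are means of 2, and open or grey points mark groups with neither or 1 of 2 arrays well above background. Nppa is highest in neoCM and lowest in iCM, Corin is highest in neoCM and then iCM, Npr3 is highest in iCM and neoCF, and Npr2 spans the narrowest range.

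The Npr1 probe is shown because it crosses a splice junction: it spans 494 bases of mm9, chr3:90259171-90259664 on the minus strand, for 60 bases of sequence.
Npr1 probe: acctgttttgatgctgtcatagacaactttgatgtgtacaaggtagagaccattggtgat

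Npr1, the guanylyl cyclase receptor of both cardiac peptides, was dim, and its probe was well above background on 11 of 34 arrays. It was clearest in neoCF, at -2.63 and -2.42, and in iCM, at -3.35 and -3.15; these groups did not overlap each other or any other group. MGT D3, at -5.65 and -5.34, and MGT D7, at -5.39 and -5.57, were the other groups with both arrays above background.

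Npr2, the receptor of C-type peptide, was above background on all 34 arrays and varied least, between 1.57 and 3.78. It was highest in MGT D7, at 3.78 and 3.71, and lowest in iPSC2-CM D29, at 1.60 and 1.57. Of 16 neighbouring groups in its order, 9 overlapped.

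Npr3, the clearance receptor, was highest in iCM, at 1.32 and 1.58, and in neoCF, at 1.54 and 1.12, and these groups overlapped. LacZ D7 read 0.33 and 0.52, LacZ D10 0.38 and 0.28, and LacZ D14 0.19 and -0.10. The neoCM arrays, at -1.35 and -1.11, overlapped LacZ D5, at -1.18 and -1.14. All 10 MGT arrays lay between -3.35 and -1.76. In iPSC2-CM D29 the arrays disagreed, at -2.47 and -7.07, and in iPSC2-CM D9, at -5.46 and -6.49, the probe was not well above background.

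In newborn hearts, cardiomyocytes carried more of both cardiac peptides and of Corin, and less of Nppc, Npr1 and Npr3, than fibroblasts. Of the 7 genes, 3 were higher and 3 lower in neoCM, against 31.6% of all genes tested that were called in this comparison, 15.5% higher and 16.1% lower. Nppa was higher by 5.86 ± 0.34 (log2 ± SE, adjusted p = 6.8e-11), Nppb by 5.11 ± 0.60 (adjusted p = 8.2e-07) and Corin by 4.39 ± 0.71 (adjusted p = 3.9e-05). Nppc was at least 11.8-fold lower in neoCM. It passed the filter only through neoCF and iPSC2-CM D29, so this call follows in part from the filter. Here and below, "at least" sets the bright group's mean against the dim group's mean, each dim array being raised to the lowest signal well above background on it. Npr1 was lower, at -2.76 ± 0.62 (adjusted p = 0.00097), with 1 of 2 neoCM arrays above background. Npr2 differed by -0.13, with a 95% interval of -0.44 to 0.19. Npr3 fell by 2.56 ± 0.78 (adjusted p = 0.0099), a call that ended without neoCF replicate 1 (0.061), without neoCM replicate 1 (0.053) and in a test against a 2-fold change (limma treat, 0.17). With background corrected by normexp and arrays then quantile normalized ("under normexp" below), which adds an offset that shrinks the changes of dim probes, the values of Nppc and Npr1 were -2.31 and -1.45.

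Beside these differences, the summed level of the 7 endothelial and endocardial markers was 7.19 to 7.25 in neoCF and 4.10 to 4.22 in neoCM, and all 7 were above background in both groups. The 4 macrophage markers summed to 5.55 to 6.11 in neoCF and 1.53 to 1.63 in neoCM, where 3 of 4 were above background on both arrays. The fibroblast markers summed to 9.37 to 9.39 in neoCF and 9.25 to 9.31 in neoCM, with 2 of 6 called lower and 0 higher. Of the smooth muscle and pericyte markers, 4 of 5 were called higher in neoCM and 0 lower, with a median log2 change of 2.81. The part of these cell types in the Nppc, Npr1 and Npr3 signals was not tested.

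Early cardiomyocytes of the pluripotent route carried less Nppa and Corin than neoCM, on all 4 arrays of both lines. In the mean of iPSC1-CM D13 and iPSC2-CM D9 against neoCM, 5 of the 7 genes were lower and none higher, where 37.9% of all genes were called, 19.5% higher and 18.4% lower; 1 of the 5, Nppc, was below background on both sides. The log2 change of Nppa was -4.88 ± 0.29 (adjusted p = 4.1e-11), that of Corin -3.88 ± 0.62 (adjusted p = 2.1e-05), that of Npr3, above background on 2 of the 4 iPSC-CM arrays, -3.42 ± 0.67 (adjusted p = 0.0002) and that of Nppb -2.14 ± 0.52 (adjusted p = 0.0014). For Nppb the mean difference came with iPSC1-CM D13, at -0.58 and -1.08, while iPSC2-CM D9, at 4.03 and 2.63, overlapped neoCM, at 3.34 and 3.43. The Nppb call ended in the test against a 2-fold change (0.098). Against neoCF, 1 gene was higher and 3 were lower, with 37.2% of all genes called, 18.6% higher and 18.5% lower. Nppb rose by 2.98 ± 0.52 (adjusted p = 5.8e-05), Npr3 fell by 5.98 ± 0.67 (adjusted p = 2.7e-07), Npr1 was at least 9.21-fold lower and Nppc at least 14.6-fold lower. Of these, the Nppc call follows in part from the filter, which Nppc passed through neoCF. The mean rise of Nppb came mostly with iPSC2-CM D9, at 4.03 and 2.63. Against neoCF, at -1.58 and -1.87, iPSC1-CM D13 read -0.58 and -1.08. Nppa differed from neoCF by 0.99 ± 0.29, under the 2-fold mark; iPSC1-CM D13, at 2.48 and 2.31, lay within the neoCF arrays, at 3.26 and 2.25, and iPSC2-CM D9, at 5.21 and 4.97, lay above them. Without neoCF replicate 1 that value was 1.49 (adjusted p = 0.0012), which would be called. Npr2 differed by -0.87 and was called after quantile normalization, at -1.13. Its value was -1.11 under normexp and -1.08 in the authors' table.

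The lines differed in the peptides. Between iPSC2-CM D9 and iPSC1-CM D13, where line and day change together, 3 genes were higher and 1 lower in line 2, with 21.4% of all genes called, 9.44% higher and 11.9% lower; 1 of the 3, Npr1, was below background in both groups. Nppa was higher in line 2 by 2.70 ± 0.34 (adjusted p = 2.9e-06) and Nppb by 4.16 ± 0.60 (adjusted p = 1.7e-05). Corin went the other way by -1.76 ± 0.71 without passing (adjusted p = 0.058), and was called under normexp (0.0001), in the authors' table (0.004) and when only the arrays compared entered the fit (0.0033). Npr3 was at least 4.08-fold lower in line 2 (adjusted p = 0.011), and this call ended without iPSC1-CM D13 replicate 2 (0.06), without iPSC2-CM D9 replicate 2 (0.11) and in the test against a 2-fold change (0.22). Under normexp, Npr3 was lower by a log2 value of -1.32. The fibroblast markers summed to 8.04 to 8.23 in iPSC1-CM D13 and 4.40 to 4.72 in iPSC2-CM D9, with 6 of 6 above background in both, and their part in the Npr3 difference was not tested.

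Long culture of line 2 brought 1 call in the 7 genes, where 24.3% of all genes were called, 14.7% higher and 9.57% lower. Nppc was at least 3.28-fold higher in D29 than in D9 (log2 change 3.44 ± 0.32, adjusted p = 7.9e-08), and the call ended when only the arrays compared entered the fit (0.14) and with array weights (0.56). Nppc passed the filter only through D29 and neoCF, so this call also follows in part from the filter. Of all 19408 genes, the main fit called 4709, the fit on only the arrays compared 0 and the fit with array weights 466. The size of the Nppc change was 1.86 in the authors' table and 1.01 under normexp. Nppa, at 0.37 ± 0.34, and Nppb, at -0.23 ± 0.60, did not pass. Leaving out either D29 array made 4 calls, and the sign of Nppa, Nppb and Npr3 then depended on which array stayed: without D29 replicate 1 the changes were -0.41, 1.35 and -1.09, and without replicate 2 they were 1.15, -1.81 and 3.50. The endoderm and liver markers summed to between -2.22 and 5.62 on the D29 arrays, the widest range of any group for that list, and this was not tested against the members.

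Induced cardiomyocytes had far less Nppa and Nppb than neoCM, while the difference in Corin did not pass the test. Against neoCM, the 7 genes split into 2 higher, 3 lower and 2 not called, with 38.9% of all genes called, 18% higher and 20.9% lower; 1 of the 3 lower, Nppc, was below background in both groups. Nppa was lower in iCM, at -10.97 ± 0.34 (adjusted p = 6.1e-15), a 2006-fold difference, and so was Nppb, at -7.37 ± 0.60 (adjusted p = 3.9e-09), a 165-fold difference. Corin differed by -0.76 ± 0.71 (adjusted p = 0.37), with a 95% interval of -2.25 to 0.74. Its fold of 1.69 was also under the 2-fold mark. That interval uses the spread shared by all 17 groups, in which the Corin SD was largest in LacZ D5, at 2.64. In neoCM and iCM the SDs were 0.06 and 0.08, and the arrays of these groups did not overlap, at 2.61 and 2.52 against 1.75 and 1.86. How many of all genes did not overlap between these groups was not counted. Npr3 was higher by 2.68 ± 0.78 (adjusted p = 0.0061) and Npr1 by 2.03 ± 0.62 (adjusted p = 0.0083). The neoCM arrays read -5.87 and -4.69 for Npr1, and 1 of 2 was above background. Within the slide that held iCM and neoCM replicate 2, which is also the value without neoCM replicate 1, Nppa was -11.04, Nppb -7.41, Npr3 2.56 (adjusted p = 0.036) and Npr1 1.44, where the Npr1 call ended (0.11). The Npr1 and Npr3 calls also ended in the test against a 2-fold change (0.21 and 0.096), and Npr1 was 1.20 under normexp.

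Set against the early cells of the pluripotent route, iCM had less of the cardiac peptides and more of Corin and of the receptors. The iCM were collected at 4 weeks and the iPSC-CM at days 13 and 9, so route and culture time cannot be told apart. In iCM, 4 of 6 fibroblast markers were called higher and 0 lower, with a median log2 change of 4.18. Their part in the receptor differences was not tested. Of the 7 genes, 4 were higher and 2 lower, in a comparison where 46.9% of all genes were called, 20.6% higher and 26.2% lower. Nppa was lower in iCM, at -6.09 ± 0.29 (adjusted p = 8.2e-13), and so was Nppb, at -5.23 ± 0.52 (adjusted p = 3.4e-08). Npr3 was higher by 6.10 ± 0.67 (adjusted p = 1.4e-07), with its probe above background on both iPSC1-CM D13 arrays and neither iPSC2-CM D9 array, Corin by 3.12 ± 0.62 (adjusted p = 0.00018) and Npr2 by 1.37 ± 0.13 (adjusted p = 1.7e-08). Npr1 was at least 5.56-fold higher. Its log2 change was 2.89 and, under normexp, 1.63. Over all genes the median difference in this comparison was -0.22, and 0.03 after quantile normalization.

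The iCM arrays also read lower than the neoCF arrays in all 3 peptides. Against neoCF, 1 gene was higher and 3 were lower, with 37.0% of all genes called, 16.9% higher and 20.1% lower. Nppa was lower, at -5.11 ± 0.34 (adjusted p = 2.6e-10), as were Nppb, at -2.25 ± 0.60 (adjusted p = 0.0034), and Nppc, at least 21.2-fold, while Corin was higher by 3.64 ± 0.71 (adjusted p = 0.00024). The Nppc call follows in part from the filter, which Nppc passed through neoCF. Npr3 differed by 0.12, and its sign turned under quantile normalization (-0.09). The Nppb call ended in the test against a 2-fold change (0.12), and under normexp Nppb was -1.34 and Nppc -2.51. The macrophage markers summed to 5.59 to 5.63 in iCM, 1.53 to 1.63 in neoCM and 0.33 to 1.34 in the early iPSC-CM groups; the epicardial markers summed to 6.94 to 7.39 in iCM and 5.68 to 6.60 in neoCF. The endothelial markers summed to 2.91 to 3.08 in iCM and 7.19 to 7.25 in neoCF, with 5 of 7 called lower in iCM and a median log2 change of -5.05. The part of these cell types in the peptide and receptor levels of iCM was not tested.

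**Figure D3:**
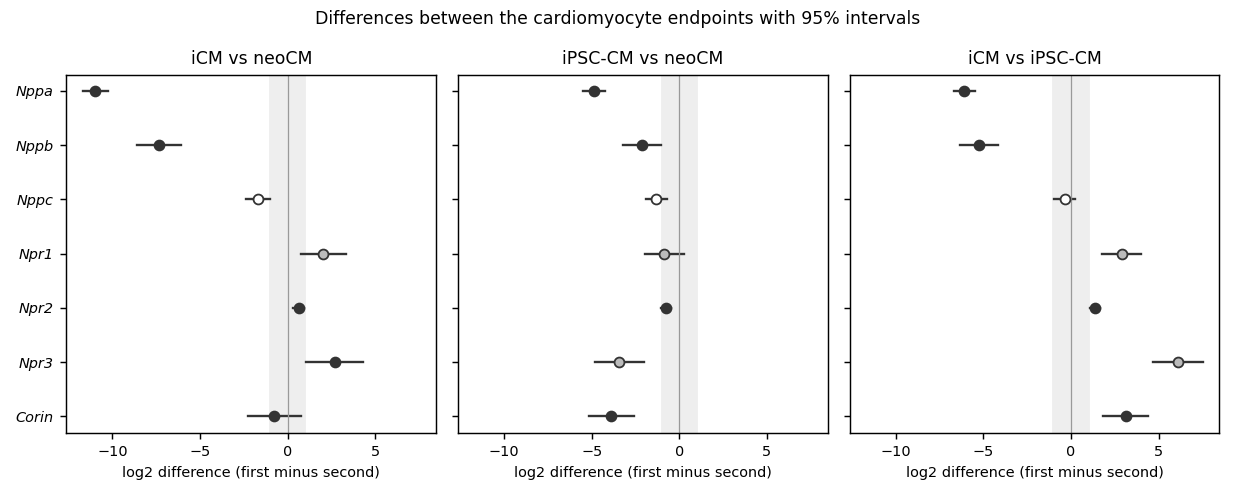
Log2 change with 95% intervals (horizontal axis) of the 7 genes (rows) in iCM against neoCM, iPSC-CM against neoCM and iCM against iPSC-CM, from the limma fit over all 34 arrays; the grey band spans changes under 2-fold, and grey or open points mark genes not well above background on all arrays of one or both sides. In iCM against neoCM, Nppa lies at -10.97 and Nppb at -7.37, while the interval of Corin includes 0.

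Against LacZ of the same day, Corin was higher with MGT from day 3 on, Nppa at days 5 to 10 and Nppb from day 5 on, while Npr3 was lower at days 7 and 10. At day 3, 1 of the 7 genes was called, higher, where 5.04% of all genes were called, 3.18% higher and 1.86% lower. At day 5, 3 were called, all higher, against 8.24%, with 4.91% higher and 3.33% lower. At day 7, 3 were higher and 2 lower, against 8.74%, with 5.31% higher and 3.43% lower. At day 10, 3 were higher and 1 lower, against 8.64%, with 5.25% higher and 3.39% lower. At day 14, 2 were higher and 1 lower, against 13.2%, with 5.84% higher and 7.34% lower. These counts include Nppc, called lower at days 7 and 14 while below background in both groups. Every MGT array of a day lay above every LacZ array of that day for Nppa, Nppb and Corin on 5 of 5 days, and below for Npr3 on 5 of 5 days. Of all genes, 23.1% to 30.1% lay wholly above and 39.8% to 45.8% wholly below on a given day. The share of all genes that did so on 5 of 5 days was not counted.

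Corin was at least 6.47-fold higher with MGT at day 3 (adjusted p = 9.2e-05), at least 48.6-fold at day 7 (adjusted p = 9.9e-08), at least 15-fold at day 10 (adjusted p = 6e-06) and at least 7.05-fold at day 14 (adjusted p = 5.4e-05). At day 5 the log2 change was 4.04 ± 0.71 (adjusted p = 0.00044). That value was 2.17 without LacZ D5 replicate 1, and the call ended when only the arrays compared entered the fit (0.13). The MGT arrays themselves went from -3.11 and -3.32 at day 3 to -0.04 and -0.46 at day 7 and read -1.67 and -2.01 at day 14. Under normexp the Corin changes ran from 1.88 at day 3 to 4.28 at day 7, with 2.46 at day 5, 3.44 at day 10 and 2.64 at day 14. The authors' table gave 3.19 at day 3.

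Nppa read 2.09 and 1.96 with MGT and 1.49 and 1.42 with LacZ at day 3. It was 2.85 and 2.84 against 0.03 and 0.02 at day 5, and 1.66 and 1.34 against -1.01 and -1.34 at day 10. All MGT arrays up to day 10 lay above the CF D0 arrays, at 1.33 and 1.13, while the LacZ arrays lay below them from day 5. MGT was not tested against CF D0, and the share of all genes with such an order was not counted. The arrays of days 3 to 10 lie on other slides and another scan than CF D0, so slide, scan and group cannot be told apart there. The changes were 0.57 ± 0.34 at day 3 (adjusted p = 0.43), 2.82 ± 0.34 at day 5 (adjusted p = 4.7e-06), 2.45 ± 0.34 at day 7 (adjusted p = 2.3e-05) and 2.68 ± 0.34 at day 10 (adjusted p = 7.5e-06). At day 14 the change was 1.00 ± 0.34 (adjusted p = 0.037), a fold of 1.99 and so not called; MGT D14 and LacZ D14 lay on different slides of the same scan. The MGT effect at day 10 was also set against that at day 3, where 1.97% of all genes were called, 1.38% higher and 0.593% lower. Nppb, at 1.94 ± 0.85 (adjusted p = 0.4), and Npr3, at -1.63 ± 1.10 (adjusted p = 0.77), did not pass. Both were called when only the arrays compared entered the fit, with array weights, and with the iPSC2-CM D29 arrays left out. The last of these alternatives was chosen after seeing the data. The only 1 of the 7 genes called in the main fit was Nppa, whose effect was larger at day 10 by 2.11 ± 0.47 (adjusted p = 0.018). That call ended without MGT D3 replicate 1 (0.055) or 2 (0.084), LacZ D3 replicate 1 (0.076) or 2 (0.063), MGT D10 replicate 1 (0.094) or LacZ D10 replicate 2 (0.079), and in the test against a 2-fold change.

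Nppb was higher with MGT at day 5 by 2.49 ± 0.60 (adjusted p = 0.0069), at day 7 by 1.84 ± 0.60 (adjusted p = 0.046), at day 10 by 2.42 ± 0.60 (adjusted p = 0.0078) and at day 14 at least 6.13-fold (adjusted p = 0.0022). At day 3 it differed by 0.48 ± 0.60. The MGT arrays held nearly level, between -1.69 and -2.40, while the LacZ arrays read -2.28 and -2.35 at day 3 and -4.22 and -4.15 at day 5. The day 7 call ended without any 1 of its 4 arrays (0.12 to 0.23), without the filter on dim probes (0.056), with slide as a fixed block (0.056), in the authors' table (0.055) and under normexp (1.19, adjusted p = 0.14). The day 10 call ended without MGT D10 replicate 1 (0.065) or LacZ D10 replicate 2 (0.057). In the test against a 2-fold change, no day's Nppb call stayed. Under normexp the Nppb change was 1.60 at day 10 and 1.78 at day 14.

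Npr3 was lower with MGT at day 7, at -3.01 ± 0.78 (adjusted p = 0.011), and at day 10, at -2.80 ± 0.78 (adjusted p = 0.017). The changes at days 3, 5 and 14 were -1.17, -2.18 and -1.93, with adjusted p of 0.51, 0.073 and 0.081. LacZ arrays read -0.83 and -0.78 at day 3 and 0.33 and 0.52 at day 7, while MGT arrays read -2.06 and -1.89 at day 3 and -2.58 and -2.59 at day 7. The calls at days 7 and 10 ended without any 1 of their 4 arrays (0.052 to 0.098) and in the test against a 2-fold change. The shared estimate of the spread took in the discordant iPSC2-CM D29 arrays. With both left out, an alternative chosen after seeing the data, Npr3 was called lower at all 5 days. The adjusted p was then 0.00066 at day 3, 3.4e-07 at day 5 and 1.5e-06 at day 14.

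Npr2 and Npr1 were not called between MGT and LacZ on any day. The Npr2 differences ran from -0.32 at day 14 to 0.35 at day 3, and the sign at day 14 turned under normexp and in the authors' table (0.06 in both). For Npr1 the probe was below background in all LacZ groups.

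Beside the peptide differences, the cardiomyocyte markers summed to 7.54 to 7.63 in MGT D3 and 8.66 to 8.74 in MGT D14, against 5.57 to 5.64 in LacZ D3 and 3.63 to 3.79 in LacZ D14. Fibroblast markers at day 7 summed to 9.35 to 9.41 with MGT and 9.73 to 9.74 with LacZ, and 6 of 6 were above background on both arrays of each of these groups. At day 14 they summed to 8.68 to 8.73 with MGT and 9.63 to 10.36 with LacZ, with 2 of 6 called lower and a median log2 change of -1.39. Endothelial markers summed to 5.11 to 5.12 in LacZ D3 and 3.48 to 4.10 in LacZ D14. At day 7 they summed to 3.30 to 3.47 with MGT and 3.79 to 4.06 with LacZ, with 3 of 7 called lower and a median of -2.01. How far these cell types carry the differences was not tested.

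**Figure D4:**
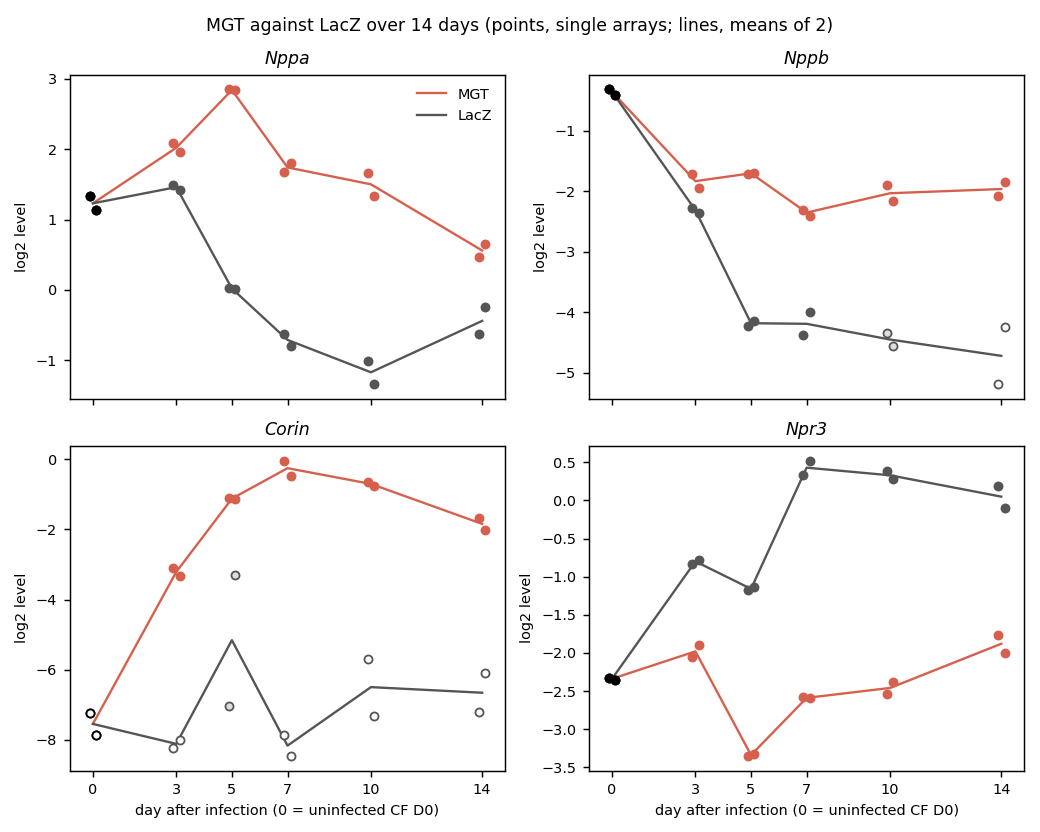
Log2 level (vertical axis) of Nppa, Nppb, Corin and Npr3 by day after infection (horizontal axis), with single arrays as points and lines through the means of 2; day 0 is CF D0, open points mark groups with neither array well above background and grey points groups with 1 of 2. Nppa, Nppb and Corin lie higher with MGT on all 5 days and Npr3 lies lower.

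Fibroblasts with LacZ had less Nppb at day 3, and less of both cardiac peptides at day 14, than CF D0. From CF D0 to LacZ D3, 1 of the 7 genes was called, lower, where 15.5% of all genes were called, 9.57% higher and 5.88% lower. Nppb fell by 1.96 ± 0.60 (adjusted p = 0.017), and the call ended without any 1 of its 4 arrays (0.066 to 0.08) and in the test against a 2-fold change. LacZ D3 and CF D0 lie on different slides and scans, so that slide, scan and group cannot be told apart there, while LacZ D14 and CF D0 share a slide. From CF D0 to LacZ D14, 3 genes were higher and 2 lower, with 27.6% of all genes called, 15.7% higher and 11.9% lower, and 1 of the 3 higher, Nppc, was below background in both groups. Nppb was at least 18.8-fold lower (adjusted p = 6.5e-06) and Nppa fell by 1.67 ± 0.34 (adjusted p = 0.00041). Npr3 rose by 2.39 ± 0.78 (adjusted p = 0.016) and Npr2 by 1.22 ± 0.15 (adjusted p = 1.6e-06). The Npr3 call ended without CF D0 replicate 1 (0.061) or 2 (0.064) or LacZ D14 replicate 1 (0.069). Npr2 was 0.93 without LacZ D14 replicate 2, 0.94 under normexp and 0.92 in the authors' table, all under 2-fold. The calls of Nppa, Npr2 and Npr3 also ended in the test against a 2-fold change. Beside these differences, 4 of 6 cardiomyocyte markers and 4 of 7 endothelial markers were called lower in LacZ D14 than in CF D0, with medians of -2.44 and -1.63. Called higher were 4 of 5 smooth muscle, 3 of 4 epicardial and 3 of 4 macrophage markers, with medians of 1.64, 1.64 and 2.12. Their part was not tested.

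The neoCF and the day 0 fibroblasts of the time course differed in this family. In CF D0 against neoCF, 5 genes were lower and none higher, with 34.4% of all genes called, 16.2% higher and 18.2% lower. Npr3 was lower, at -3.67 ± 0.78 (adjusted p = 0.00051), and so was Nppa, at -1.53 ± 0.34 (adjusted p = 0.00074). Corin was at least 11-fold lower, Nppc at least 10.4-fold and Npr1 at least 6.82-fold. Nppc passed the filter through neoCF, so its call follows in part from the filter. The Nppa call ended in the test against a 2-fold change (0.3), and under normexp the changes of Corin, Nppc and Npr1 were -2.75, -2.62 and -1.69. Nppb differed by 1.38 ± 0.60 (adjusted p = 0.06) and was called after quantile normalization (adjusted p = 0.023). The cardiomyocyte, endothelial and epicardial marker sums were lower in CF D0, at 3.12 to 3.23, 4.78 to 4.90 and 3.18 to 3.28, with 6 of 6, 5 of 7 and 4 of 4 markers called lower. The macrophage markers summed to 4.34 to 4.49 in CF D0 and 5.55 to 6.11 in neoCF, but 2 of 4 were called higher and 2 lower. The part of these cell types was not tested.

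Compared with MGT cells of day 14, the 4-week iCM arrays had less of the peptides and more Corin. These groups lie on different slides and scans, and the labels do not say that they are 1 course. Of the 7 genes, 3 were higher and 2 lower, with 20.4% of all genes called, 8.64% higher and 11.8% lower. Nppa was lower, at -2.91 ± 0.34 (adjusted p = 1.7e-06), and so was Nppb, at -2.02 ± 0.60 (adjusted p = 0.013), whose call ended without iCM replicate 2 (0.069) or MGT D14 replicate 2 (0.074). Corin was higher by 3.65 ± 0.71 (adjusted p = 0.00052), Npr3 by 3.33 ± 0.78 (adjusted p = 0.0023) and Npr1 at least 10.1-fold. The Nppb and Npr3 calls ended in the test against a 2-fold change (0.46 and 0.057), and under normexp Nppb was -1.32 and Npr1 1.82, with 2.91 for Npr1 in the authors' table.

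Against LacZ D14, a control of shorter culture, 2 genes were higher and 2 lower in iCM, with 28.3% of all genes called, 10.0% higher and 18.3% lower; 1 of the lower, Nppc, was below background in both groups. Corin was at least 88.4-fold higher (adjusted p = 1.8e-08) and Npr1 at least 2.66-fold, with a log2 change of 3.61 that was 1.97 under normexp. Nppa was lower, at -1.91 ± 0.34 (adjusted p = 0.00012), a call that ended in the test against a 2-fold change (0.066). Nppb was not lower than in this control, at 0.74 ± 0.60 (adjusted p = 0.33), with its probe not well above background in LacZ D14. Npr3 differed by 1.40 ± 0.78 (adjusted p = 0.15) and was called under normexp, in the authors' table and when only the arrays compared entered the fit.

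Beyond the 7 members, 26 genes of peptide processing, cGMP signalling and cGMP breakdown were counted, all of them tested. In iCM against neoCM, 6 were higher, 5 lower and 15 not called, where 38.9% of all genes were called, with a median of 0.28 against -0.06 over all genes. Ostn, which encodes a peptide that binds Npr3, read -0.54 and -0.62 in iCM, above every other group, and was at least 29.8-fold higher than in neoCM (adjusted p = 2.8e-10). The protease gene Pcsk6 was higher by 2.69 and the cyclic nucleotide exporter Abcc4 by 2.33. Pln, the inhibitor of the calcium pump and a target of cGMP-dependent kinase, was lower, at -6.97. Pde1c was at least 76.1-fold lower and Pde5a, the cGMP-specific phosphodiesterase, was lower, at -4.14.

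In iCM against the iPSC-CM groups, 12 of the 26 were higher, 4 lower and 10 not called, where 46.9% of all genes were called, with a median of 0.98 against -0.22 over all genes. Among the rises were Mrvi1, a kinase substrate also named Irag1 (4.68), and Ostn (3.84, with iPSC2-CM D9 not above background). Pde1a was called higher too, but read 2.83 and 2.75 in iCM and 2.34 and 2.51 in iPSC1-CM D13, and was not well above background in iPSC2-CM D9. The largest falls were Pln (-2.35), Cnga3 (-2.18) and Furin (-1.61), a protease that cuts the B-type precursor. The iPSC-CM groups against neoCM gave 3 higher, 11 lower and 12 not called, where 37.9% of all genes were called, with a median of -0.44 against 0.10. In neoCM against neoCF, 5 were higher and 5 lower, where 31.6% were called, with a median of 0.21 against -0.04.

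With MGT, the count of these 26 genes called higher and lower was 0 and 1 at day 3, 1 and 2 at day 5, 2 and 4 at day 7, 3 and 3 at day 10, and 4 and 3 at day 14. Of all genes, 5.04%, 8.24%, 8.74%, 8.64% and 13.2% were called on these days. Pln was at least 2.6-fold higher at day 7, 3.13-fold at day 10 and 9.57-fold at day 14. Gnai1, an inhibitory G protein of the kind that Npr3 can couple to, was higher by 1.45 at day 5, 1.10 at day 7, 1.26 at day 10 and 1.47 at day 14. Pcsk6 was lower by a log2 change of -1.01 at day 5, -1.56 at day 7, -1.05 at day 10 and -1.18 at day 14. Gucy1a1, a subunit of the soluble guanylyl cyclase, was lower at -1.10, -1.27 and -1.55 at days 7, 10 and 14. Mme, which encodes neprilysin, a peptidase that degrades natriuretic peptides, was at least 2.28-fold lower at day 10 and lower at -2.79 at day 14, where 1 of 2 MGT arrays was above background.

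Of 5 atrial genes, 0 were higher and 2 lower in iCM than in neoCM, while 4 of 4 ventricular genes tested were lower, where 38.9% of all genes were called. Myl7, the atrial regulatory light chain, read 6.72 and 6.45 in iCM and 7.50 and 7.54 in neoCM, and Sln, the atrial calcium pump inhibitor, 7.08 and 6.69 against 7.22 and 7.14. The ventricular light chain Myl2 read -4.72 and -2.01 in iCM and 8.32 and 8.68 in neoCM. The called atrial genes were Myl4 (-1.50) and Kcnj3 (-3.44), and the ventricular changes ran from -4.77 for Hey2 to -13.77 for Myl3. Nppa, in the adult a gene of atrial muscle, changed by -10.97 in the same comparison.

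Of 10 transcription regulators of the peptide genes, 1 was higher, 5 lower and 4 not called in iCM against neoCM, where 38.9% of all genes were called. Nkx2-5, a homeodomain factor that activates Nppa, read -3.77 and -3.60 in iCM and 4.94 and 4.75 in neoCM, a change of -8.53 ± 0.57 (adjusted p = 2.5e-10). It was lower than in the early iPSC-CM groups, at -7.20 ± 0.49 (adjusted p = 1.6e-10). In the MGT arrays it stayed between -4.10 and -2.85 over all days, within the LacZ range of -4.65 to -2.24. Probes of Gata4, Tbx5 and Mef2c may also read the delivered copies. Nkx2-5 is the only listed regulator given with values here, and the part of any regulator in the Nppa levels was not tested.

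**Figure D5:**
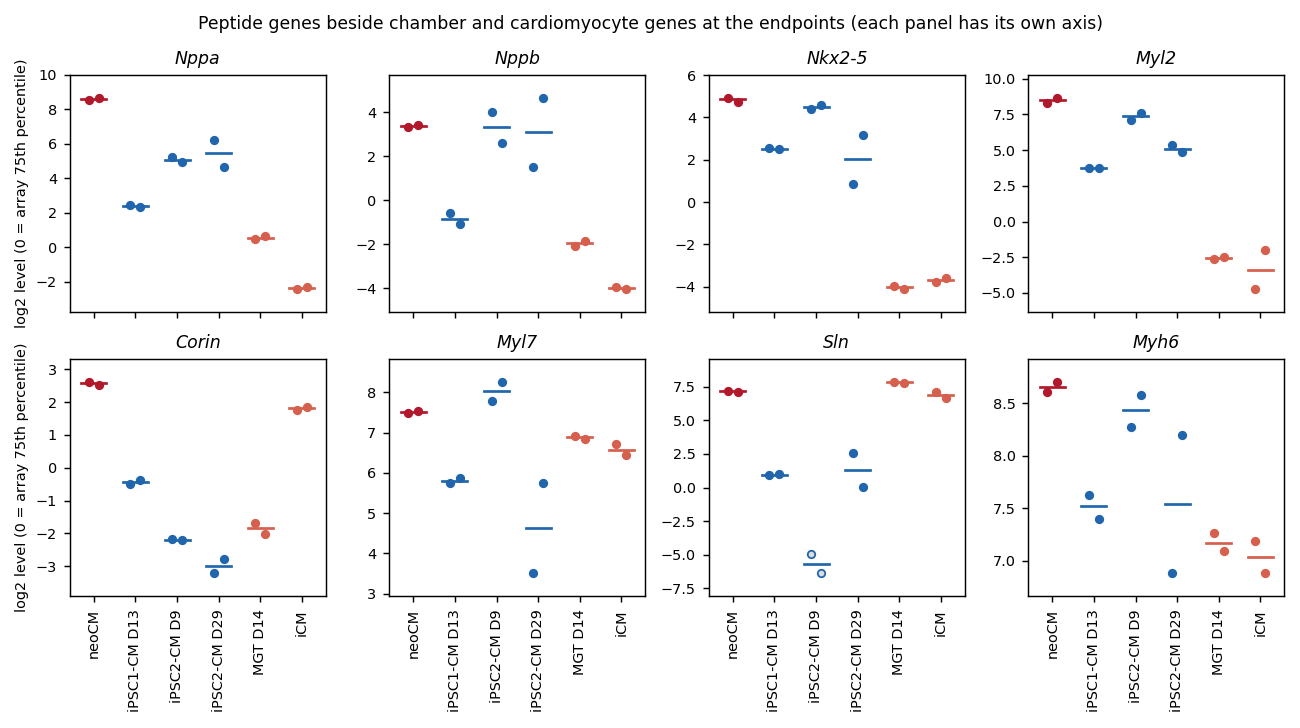
Log2 level relative to the 75th percentile (vertical axes, each panel its own) of Nppa, Nppb, Corin, Nkx2-5, Myl2, Myl7, Sln and Myh6 in neoCM, the iPSC-CM groups, MGT D14 and iCM; points are single arrays and bars means of 2. In iCM, Myl7, Sln and Corin are high while Nppa, Nppb, Myl2 and Nkx2-5 are low.

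Across the 17 group means, Nppa and Nppb followed each other with r = 0.92, while Npr3 ran against Nppb with r = -0.70 and Npr2 against Nppb with r = -0.78. Corin followed Nppa with r = 0.43. These are descriptions over 17 points that share arrays, slides and normalization. The genes most like Nppa were Rergl (r = 0.930), Gm16863 (0.930) and Fabp3 (0.925), and those most like Nppb were Ppp1r12b (0.924), Rbm38 (0.923) and Mreg (0.920). Corin was most like Pdzd2 (0.945), Tcap (0.929) and Txlnb (0.926). For the receptors, Npr3 was most like Csgalnact1 (0.965), Entpd2 (0.960) and Cygb (0.935), Npr2 like Hp1bp3 (0.963), Septin8 (0.955) and Mxra8 (0.946), and Npr1 like Abcb1a (0.839), Prrg3 (0.827) and Card10 (0.819). Nppc, at background in 15 groups, was most like Slc7a9 (0.932), Itgb2l (0.931) and Alox15 (0.925).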

How the data were processed

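Each of the 34 arrays is a 1-colour Agilent scan. Per the file headers, Feature Extraction 10.7.3.1 read the spot intensity, subtracted background and removed spatial trend on each array, and the deposited flags (other columns, 0 or 1) mark spots well above background. No spot was saturated. The processed intensity was taken to log2, each array's 75th percentile was subtracted, control spots and outlier flags were left out, and spots of a probe were averaged. A probe was kept if, in 1 or more groups, each array read it well above background, which left 43370 probes, 25627 of them with a gene; where several probes carry a gene, the brightest on average stood for it, giving 19408 genes. Probe names were updated through RefSeq by accession for 26056 probes, by symbol for 3200 and by older symbol for 930; 25495 were not matched. The authors' deposited log2 table of the same arrays (column medians 7.49 to 7.52, correlation with the scanner values 0.982 to 0.996) served as an alternative; the submitters' processing notes name limma for it, and its background correction is not given in the sources used here.

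All 17 groups entered 1 limma 3.58.1 fit in R 4.3.3 (residual degrees of freedom 17, prior degrees of freedom 1.99), with 19 comparisons, each adjusted by Benjamini-Hochberg over all genes. Comparisons that share a group, such as those against neoCF, neoCM or iCM, are not independent of each other. The 7 members and the gene lists were chosen with earlier results of these data known. All 7 are named. Of the pathway list at most the 3 largest called changes per direction are named, and likeness is the Pearson r over 17 group means. The alternatives were quantile normalization, normexp background correction (offset 50) with quantile normalization, the authors' table, other filters on dim probes, the mean of a gene's probes, fits on only the arrays compared, array weights, a replicate block, slide as a block, other fold rules and leaving out each array. The number of arrays limits the precision.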

Additional observations from a re-analysis of the deposited data

Results flagged for a closer look

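The MGT effect on Nppa differed between days. It was larger at day 10 than at day 3 by 2.11 on the log2 scale (adjusted p = 0.018, limma). With an array left out, the difference was 1.94 to 2.28. The call ended in 6 of these 8 fits and in the test against a 2-fold change. All MGT arrays lay above all LacZ arrays on both days, an order that 28.5% of all genes showed at day 3 and 23.1% at day 10.

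The iPSC lines, at different days, differed in 3 genes that were above background in at least 1 of them: Nppa was higher in iPSC2-CM D9 than in iPSC1-CM D13 by 2.70 (adjusted p = 2.9e-06, limma) and Nppb by 4.16 (adjusted p = 1.7e-05), while the measured means of Npr3 differed by -2.65 (adjusted p = 0.011). The Npr3 probe was not well above background in iPSC2-CM D9, so the difference there is a bound, at least 4.08-fold lower. Line and day cannot be told apart in these differences.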

How the results depend on the processing

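Of the values for single genes under alternatives other than leaving out an array, 1346 kept their direction and their side of the threshold, 56 newly passed it, 32 no longer passed and 8 changed sign. With 1 array left out, 464 kept both, 7 newly passed, 35 no longer passed and 12 changed sign.

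The count of the 7 genes called moved by over 1.5 times as follows. With a filter at 17 of 34 arrays, which leaves out dim members, it was 2 in iPSC-CM vs neoCF, 3 in iCM vs neoCM, 0 in iPSC2-CM D29 vs D9, 2 in iCM vs LacZ D14 and 3 in CF D0 vs neoCF. In the test against a 2-fold change it was 2 in iCM vs neoCM, 3 in iPSC-CM vs neoCM, 2 in iPSC2-CM D9 vs iPSC1-CM D13, 2 at MGT D7, 2 at MGT D10, 0 for the MGT effect of day 10 against day 3, 0 in LacZ D3 vs CF D0, 2 in LacZ D14 vs CF D0 and 3 in iCM vs MGT D14. With only the arrays compared, and also with array weights, it was 0 in iPSC2-CM D29 vs D9, 2 at MGT D3, 3 for the MGT effect and 2 in LacZ D3 vs CF D0. With both iPSC2-CM D29 arrays left out, an alternative chosen after seeing the data, it was 2 at MGT D3, 5 at MGT D14, 3 for the MGT effect and 2 in LacZ D3 vs CF D0. Normexp gave 3 at MGT D7, 2 for the MGT effect, 2 in LacZ D3 vs CF D0 and 3 in LacZ D14 vs CF D0; the authors' table gave 3 at MGT D7 and 2 in LacZ D3 vs CF D0; no filter on dim probes gave 3 at MGT D7, and no fold threshold 2 in LacZ D3 vs CF D0. With 1 array left out the count ranged from 1 to 4 in iPSC2-CM D29 vs D9, 2 to 4 in iPSC2-CM D9 vs iPSC1-CM D13, 2 to 2 at MGT D7, 2 to 3 at MGT D10, 0 to 1 for the MGT effect and 0 to 0 in LacZ D3 vs CF D0. Beyond the construction of these settings, the cause was not tested.

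Signs turned for small or discordant values. In iCM vs neoCF, Npr3 was -0.09 after quantile normalization, -0.10 under normexp, -0.10 in the authors' table, and -0.09 to 0.33 with 1 array left out. In iPSC2-CM D29 vs D9, leaving out 1 array gave -0.41 to 1.15 for Nppa, -1.81 to 1.35 for Nppb, -2.52 to 0.41 for Npr1 and -1.09 to 3.50 for Npr3, the ends set by which D29 array stayed. Npr2 at MGT D14 was 0.06 under normexp and 0.06 in the authors' table. For the MGT effect of day 10 against day 3, Npr1 was -0.18 to 0.31 with 1 array left out. Npr2 in iCM vs LacZ D14 was 0.13 after quantile normalization, 0.37 under normexp, 0.39 in the authors' table, and -0.29 to 0.28 with 1 array left out.

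Replicate numbers did not pair the arrays (correlation of same-numbered deviations -0.07 to 0.14); with the replicate number as a block, 1 call ended, Nppb at MGT D7 (1.84, adjusted p = 0.053). Over all genes, treat gave 2703 calls in neoCM vs neoCF against 6136, and no fold threshold 9959. The MGT effect gave 1035 calls with only the arrays compared and 1211 with array weights, and MGT D3 1598 and 1798. The median of all genes moved from 0.21 to 0.01 in iPSC-CM vs neoCF and from -0.16 to 0.05 in iCM vs LacZ D14 after quantile normalization. Changes of Nppc, Npr1 and of Corin in fibroblasts rest on signal near background.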
